A study of Mus musculus with 23 samples.

Results

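The comparison asks which genes responded to retinoic acid (RA) differently in SET knockout (KO) and wild-type (WT) mouse embryonic stem cells (ESCs), and whether KO and WT stood apart before the treatment or after it. It used the R1 cells of title set 2, which are 13 of the 23 libraries of the series. Libraries that share a title code are taken as 1 sample and were summed, which gave 9 of 19 samples. Untreated cells were WT (samples 2a and 2b), line KO1 (2c and 2d) and line KO2 (2e and 2f), the KO lines labelled SET-/-. Cells given RA for 4 d were 1 WT sample (2g) and 2 KO samples (2h and 2i). All were kept on mouse embryonic fibroblast feeders with serum and LIF, and the sources used here do not say whether feeders were present during RA. Both KO RA samples are titled KO1, but the column name in the data of 2i carries the line number of the KO2 samples. The labels do not state separate cultures, and the p-values therefore cover only how far these samples differ from each other, possibly for technical reasons.

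RA is a vitamin A derivative that binds nuclear receptors (RAR with RXR) on DNA, turns on Hox genes and its own degrading enzymes, and moves ESCs out of pluripotency. SET is a histone-binding protein that also inhibits the phosphatase PP2A and is known to bind p53 and keep it from being acetylated. The naive ESC state rests on transcription factors such as KLF4, ESRRB and SOX2, and their loss marks exit from it.

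QuantSeq counts 1 tag at the 3′ end of each polyadenylated RNA, and levels are given as CPM, the counts scaled to the total of each library. Assigned counts ran from 2833064 to 10217040 in untreated samples and from 3904924 to 5047363 after RA, so that 3 counts correspond to between 0.294 and 1.06 CPM. Untreated cells held Sox2 at 274 to 457 CPM and Esrrb at 157 to 353 CPM, while Pou5f1 stood at only 0.721 to 8.90 CPM. After RA, 28 of 31 tested Hox genes rose in WT and 30 in KO, beside 24.8% and 28.3% of all tested genes that rose. The Set transcript was reduced but present in the KO samples. It stood at 1175 and 1360 CPM in untreated WT, at 506, 551, 382 and 268 CPM in KO samples 2c to 2f, at 540 CPM in WT after RA and at 259 and 176 CPM in KO after RA. The WT and KO samples did not overlap on either side, as in 29.4% of all tested genes before RA and 71.4% after it, where only 3 samples are compared. The Set gap did not pass the test of a change with RA (difference log2 0.30, SE 0.26, edgeR adjusted p = 0.758).

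The quantity tested is the KO against WT gap after RA minus the same gap before RA, on the log2 scale, which equals the RA change in KO minus the RA change in WT. A positive difference means that RA moved the gene higher in KO relative to WT. Of 14659 tested genes, 160 passed (1.09%, edgeR quasi-likelihood test, Benjamini-Hochberg adjusted p under 0.05), and 1574 had an unadjusted p under 0.05. There were 109 genes with a lower difference (0.744%) and 51 with a higher one (0.348%). In 85 of the 160 genes the RNA rose with RA in both genotypes, and in 27 it fell in both, so most differences lay in the size of a shared change. Over all tested genes RA changed 47.3% in WT (24.8% rose and 22.5% fell) and 55.1% in KO (28.3% rose and 26.8% fell). It rose in WT and fell in KO for 4 genes (Tap2, Lrrn4, Mycl and Idh1) and fell in WT and rose in KO for 1 (Cdkl2). The WT side after RA is 1 sample, assumed to vary like the others. The count was 27 without untreated WT sample 2b, 27 without KO RA sample 2h and 388 without untreated KO sample 2f, and 2 when every library was its own sample.

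In untreated cells 1524 genes (10.4%) differed between KO and WT, 876 higher (5.98%) and 648 lower (4.42%) in KO, while after RA 58 genes (0.396%) did, 42 higher (0.287%) and 16 lower (0.109%), with 929 at an unadjusted p under 0.05. The comparison after RA sets 2 samples against 1 and the untreated one 4 against 2, so the counts differ in power. By size alone, the gap was larger before RA in 125 of the 160 genes (78.1%) and after RA in 35, beside 52.9% of all tested genes with the larger gap before. In the 160 genes, the gap passed its own test before RA only in 137, after RA only in 8, on both sides with the same sign in 1 (Lama1), on both with opposite signs in 3 (Epas1, Dlc1 and Lrrn4) and on neither in 11. These classes come from the values that make up the difference and are a description. Among the 109 genes with a lower difference the median gap went from log2 1.06 untreated to log2 -0.27 after RA, and among the 51 with a higher one from log2 -0.78 to log2 0.47. Over all tested genes the medians were log2 0.00 and log2 -0.01.

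**Figure D1:**
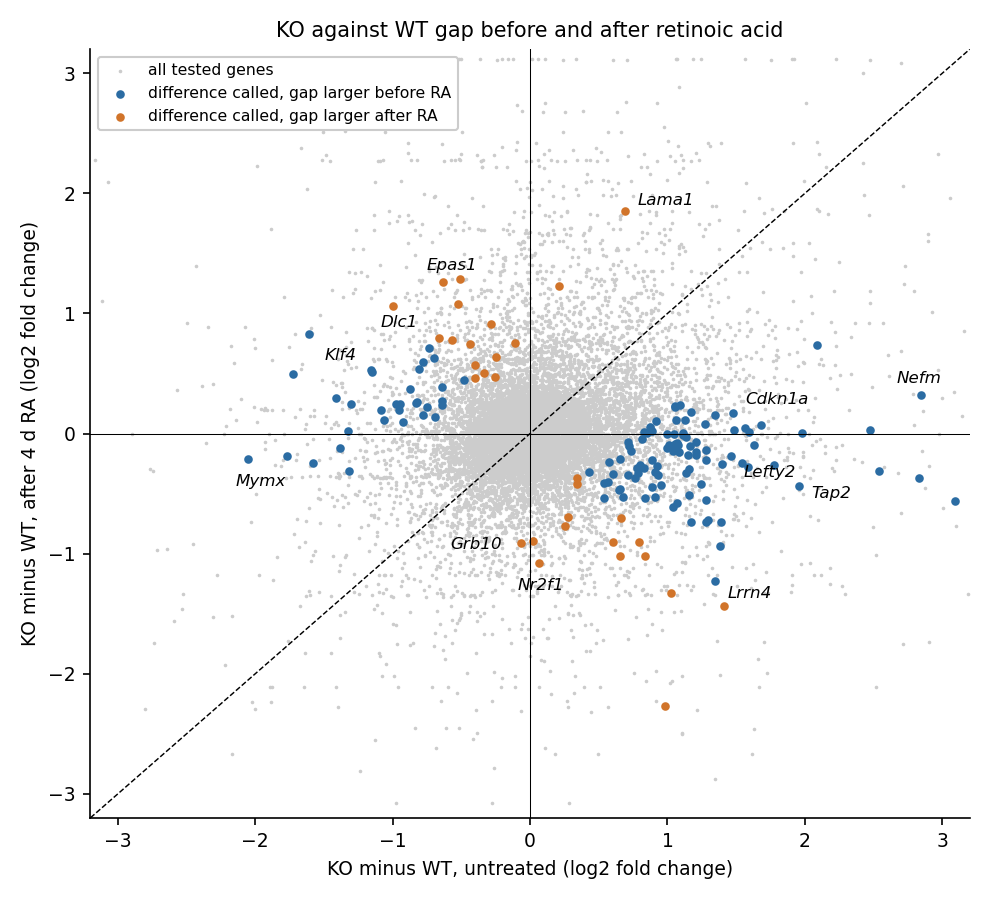
Each point is a gene, with the KO minus WT log2 fold change in untreated cells on the x axis and after 4 d of RA on the y axis. The 160 genes called for the difference are coloured by the side on which their gap is larger (125 before, 35 after), and the dashed line marks an equal gap on both sides. Coloured points lie mostly along the horizontal zero line, where KO and WT differ before RA and less after it, and 5 called genes and 241 tested genes lie outside the axes.

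By value, the gap had opposite signs before and after RA in 128 of the 160 genes (80.0%), and in 3 of them it passed its test on both sides. These genes were picked for a change between the 2 gaps, which favours opposite signs, and the share over all tested genes was not counted. The median absolute gap of the 160 was log2 0.97 before and log2 0.31 after RA, so many of the later signs belong to small gaps. Epas1 (chromosome 17, 86753700 to 86833410, GRCm38) encodes the hypoxia-inducible transcription factor HIF-2α. It stood at 116 and 132 CPM in untreated WT, at 81.2, 87.7, 76.7 and 75.0 CPM in untreated KO, at 31.6 CPM in WT after RA and at 74.9 and 76.5 CPM in KO after RA. WT was above every KO sample before RA and below both after it, while the KO samples after RA lay at the lower end of untreated KO. The RA change was log2 -1.97 in WT (adjusted p = 1.54e-09) and log2 -0.08 in KO (adjusted p = 0.568), a difference of 1.89 (SE 0.22, edgeR adjusted p = 4.82e-05). Its gap was log2 -0.63 before RA (adjusted p = 0.000314) and log2 1.26 after (adjusted p = 0.000929).

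Dlc1 (chromosome 8, 36567751 to 36953143), a gene known as a tumour suppressor in liver cancer, had the same form. It stood at 393 and 467 CPM in untreated WT, at 256, 271, 270 and 290 CPM in untreated KO, at 147 CPM in WT after RA and at 249 and 262 CPM in KO after RA. WT again lay above all KO samples before RA and below both after it. The RA change was log2 -1.55 in WT and log2 -0.09 in KO (adjusted p = 0.489), a difference of 1.46 (SE 0.18, edgeR adjusted p = 5.5e-05).

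Lrrn4 (chromosome 2, 132868305 to 132880891), a leucine-rich repeat membrane protein gene known as a mesothelial marker, crossed the other way. It stood at 15.3 and 19.1 CPM in untreated WT, at 62.8, 35.3, 37.3 and 49.1 CPM in untreated KO, at 42.8 CPM in WT after RA and at 19.9 and 16.6 CPM in KO after RA. Levels of WT with RA lay within the untreated KO range, and those of KO with RA lay close to untreated WT. It rose in WT (log2 1.27, adjusted p = 0.000496) and fell in KO (log2 -1.30, adjusted p = 9.55e-06), with a difference of -2.57 (SE 0.35, edgeR adjusted p = 0.000277). Of the named genes, Dlc1 and Lrrn4 passed under all 21 alternatives, and Epas1 lost its call under 1.

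No label names a batch, but the untreated libraries split into 2 sub-batches, here called A and B, on either side of the widest gap on their main axis of variation (28.7% of the variance), and each holds WT and KO libraries. Samples 2a, 2b, 2d and 2e each sum 1 library of A and 1 of B. Sample 2c is 1 library of B, and 2f is 1 of A. Counts from A and from B were 1475892 and 1770213 in WT 2a and 7941952 and 2275088 in WT 2b. They were 2101566 and 3322240 in KO 2d and 1423772 and 4106207 in KO 2e. WT and KO samples thus held A and B in unequal parts. The RA libraries could not be placed in either sub-batch. The split was drawn from these same libraries, and the same RA samples entered the fits of A and of B. A call with A and with B is therefore a description, not independent support. With untreated libraries of A alone or of B alone, the differences were 1.75 and 1.62 for Epas1, 1.40 and 1.42 for Dlc1, and -2.55 and -2.17 for Lrrn4, and all passed. The untreated gap of Epas1 passed in A (log2 -0.49, adjusted p = 0.0041) and not in B (log2 -0.35, adjusted p = 0.0738), with WT at 85.7 and 97.6 CPM and KO at 68.6 to 80.5 CPM in B. Of the 160 genes, 130 passed with A alone, 119 with B alone and 92 with each, and 112 with sub-batch as a covariate.

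Genes of the naive pluripotent state were lower in KO before RA, and none differed by the test after it. Of 34 listed core and naive pluripotency genes, all tested, 24 were lower and 1 higher in untreated KO (median gap log2 -0.61), beside 4.42% and 5.98% of all tested genes. None of the 34 passed in either direction after RA (median gap log2 0.10), beside 0.396% of all tested genes. The medians over all tested genes were log2 0.00 and log2 -0.01. At an unadjusted p under 0.05, edgeR gave 6 of the 34 after RA and 929 of all tested genes (6.34%), and DESeq2's Wald test called none of the 34. All 34 fell with RA in WT (median log2 -3.24) and 33 in KO (median log2 -2.46). Of these, 5 were called for the difference, all positive (Klf4, Klf5, Tet2, Utf1 and Tbx3), beside 0.348% of all tested genes with a called positive difference. The summed level of the list was 8447 and 8941 CPM in untreated WT, 6087 to 7054 CPM in untreated KO, 1660 CPM in WT after RA and 1778 and 1801 CPM in KO after RA.

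Klf4, which encodes a zinc finger factor of the naive network and stands on chromosome 4 (55527143 to 55532466), led this group. It stood at 418 and 448 CPM in untreated WT, at 167, 175, 194 and 248 CPM in untreated KO, at 53.9 CPM in WT after RA and at 73.7 and 81.7 CPM in KO after RA. WT was above all KO samples before RA and below both after it, but the later gap did not pass (log2 0.53, adjusted p = 0.398). It fell by 3.01 on the log2 scale in WT and by 1.32 in KO, a difference of 1.69 (SE 0.21, edgeR adjusted p = 5.3e-05; 1.70 with sub-batch A alone and 1.35 with B alone). Tet2, which encodes an enzyme that oxidises methylated cytosine, stood at 102 and 139 CPM in untreated WT, 36.8 to 56.9 CPM in untreated KO, 31.4 CPM in WT after RA and 29.8 and 33.9 CPM in KO after RA. Its WT and KO samples were apart before RA and overlapped after it (difference 1.35, adjusted p = 0.014). Klf5, another naive KLF factor, had a difference of 0.86 (adjusted p = 0.014), with 163 CPM in WT after RA against 214 and 236 CPM in KO. Utf1, a chromatin-bound ESC protein gene, had a difference of 1.45 (adjusted p = 0.0243).

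Etv4, an ETS factor gene induced by FGF and ERK signalling, had a like form. It stood at 222 and 250 CPM in untreated WT and at 71.4, 80.2, 84.7 and 126 CPM in untreated KO, and it came to 19.2 CPM in WT and 22.2 and 25.0 CPM in KO after RA. The untreated groups did not overlap, and after RA both genotypes were low (difference 1.70, SE 0.28, adjusted p = 0.00233). Hmces, which encodes a protein that shields abasic sites in DNA, stood at 211 and 217 CPM in untreated WT, 71.8 to 97.5 CPM in untreated KO, 22.3 CPM in WT after RA and 24.0 and 28.8 CPM in KO after RA (difference 1.55, adjusted p = 0.00198). Mymx, the gene of the muscle cell fusion peptide myomixer, had the widest untreated gap of the named genes with a higher difference (log2 -2.05) and fell in both genotypes to between 3.61 and 4.30 CPM (difference 1.84, adjusted p = 0.0413; not called with sub-batch B alone, adjusted p = 0.0765, and lost under 13 of 21 alternatives).

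Of the 85 called genes that RA raised in both genotypes, 84 had a lower difference. Of 33 tested p53 targets, 15 were higher and none lower in untreated KO (median log2 0.40), beside 5.98% and 4.42% of all tested genes. None passed after RA (median log2 0.08), beside 0.396% of all tested genes, with 0 of 33 even at an unadjusted p under 0.05 in edgeR and 0 by DESeq2's Wald test. The difference was called for 5 of the p53 targets, all lower (Cdkn1a, Tap1, Plk2, Phlda3 and Btg2), beside 1.09% of all tested genes. Of the 33, 20 rose and 2 fell with RA in WT, and 22 rose and 5 fell in KO. Over all tested genes 24.8% rose in WT and 28.3% in KO. Cdkn1a, the gene of the cell cycle inhibitor p21, lies at chromosome 17, 29090976 to 29100727. It stood at 72.4 and 66.8 CPM in untreated WT, at 185, 187, 184 and 217 CPM in untreated KO, at 535 CPM in WT after RA and at 548 and 661 CPM in KO after RA. Every untreated KO sample was above both WT samples, and after RA the WT sample was just under the KO samples (gap log2 0.18, adjusted p = 0.947). The rise was log2 2.95 in WT and log2 1.65 in KO, a difference of -1.30 (SE 0.18, edgeR adjusted p = 0.000277; -1.52 with sub-batch A alone and -0.97 with B alone). Plk2, a stress-induced polo-like kinase gene, stood at 51.0 and 52.1 CPM in untreated WT, 97.03 to 115 CPM in untreated KO, 388 CPM in WT after RA and 418 and 489 CPM in KO after RA (difference -0.83, adjusted p = 0.0213). Phlda3, which encodes an inhibitor of AKT, had a difference of -0.81 (adjusted p = 0.0296), and Btg2, an antiproliferative gene that is also an immediate early gene, one of -0.95 (adjusted p = 0.0471, lost under 13 of 21 alternatives).

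The RefSeq promoter of Cdkn1a is shown because p53 is the factor named in the series title and the gene led the p53 list. The capitals mark the match to CATGNNNNNNCATG, the CATG cores of a pair of adjoining p53 half-sites, searched on both strands, which lies 48 to 35 bases before the annotated start. The window holds the 250 bases before that start (GRCm38.p6, plus strand, chr17:29090729-29090978).
Cdkn1a: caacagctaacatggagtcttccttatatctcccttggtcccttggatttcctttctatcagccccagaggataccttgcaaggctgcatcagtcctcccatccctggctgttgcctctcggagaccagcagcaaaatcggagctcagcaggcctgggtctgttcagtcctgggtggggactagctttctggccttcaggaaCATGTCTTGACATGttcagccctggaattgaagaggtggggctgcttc
The motif was present in 27 of the 10535 tested genes with such a window (0.256%) and in 2 of the 117 called ones (1.71%). A window was printed only where it held a match, and a match is a description of letters, not of binding.

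Targets of the TGF-beta, BMP and Nodal signalling branches had 9 of 25 tested genes higher and 3 lower in untreated KO (median log2 0.47), beside 5.98% and 4.42% of all tested genes. None of the 25 passed after RA (median log2 -0.17), beside 0.396% of all tested genes. The difference was called for 5, all lower, among them Lefty2, Msx1, Id2 and Id3, beside 0.744% of all tested genes with a called lower difference. Lefty2, which encodes a secreted inhibitor of Nodal, is one of the genes that RA lowered. It stood at 161 and 148 CPM in untreated WT, at 445, 381, 384 and 494 CPM in untreated KO, at 29.1 CPM in WT after RA and at 24.8 and 26.2 CPM in KO after RA. The untreated KO samples were all above WT, and after RA all 3 samples were low. It fell by 2.40 on the log2 scale in WT and by 4.06 in KO (difference -1.65, SE 0.24, adjusted p = 0.000484). Id3, an inhibitor of basic helix-loop-helix factors and a BMP target gene, stood at 524 and 608 CPM in untreated WT, at 1350, 1357, 1287 and 930 CPM in untreated KO, at 1909 CPM in WT after RA and at 1842 and 1954 CPM in KO after RA. The WT sample lay between both KO samples after RA (difference -1.12, SE 0.19, adjusted p = 0.00233). Id2, of the same family, had a difference of -1.12 (adjusted p = 0.00233) and lay at 303 CPM in WT against 230 and 207 CPM in KO after RA.

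The peptide transporter genes of antigen presentation, Tap1 and Tap2, were both among the called genes. Tap2 stood at 10.8 and 10.9 CPM in untreated WT, at 45.8, 37.3, 44.4 and 42.9 CPM in untreated KO, at 33.9 CPM in WT after RA and at 26.0 and 24.2 CPM in KO after RA. It rose in WT (log2 1.64) and fell in KO (log2 -0.75), with a difference of -2.39 (SE 0.29, adjusted p = 5.3e-05). Tap1, its partner in the same transporter and a p53 target, stood at 10.8 and 7.69 CPM in untreated WT, 21.8 to 33.2 CPM in untreated KO, 68.1 CPM in WT after RA and 64.0 and 73.7 CPM in KO after RA. It rose in both (difference -1.58, SE 0.29, adjusted p = 0.00582), so the transporter genes differed in their direction in KO. Gbp2b, an interferon-induced GTPase gene, had a difference of -1.97 (adjusted p = 0.018). Its reads can be shared with near-identical Gbp copies, and its value is uncertain. The interferon response list had 8 of 19 tested genes higher in untreated KO (median log2 0.68), beside 5.98% of all tested genes. It had none higher after RA (median log2 0.19), beside 0.287% of all tested genes, and Tap1 as its called member for the difference, beside 1.09%.

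**Figure D2:**
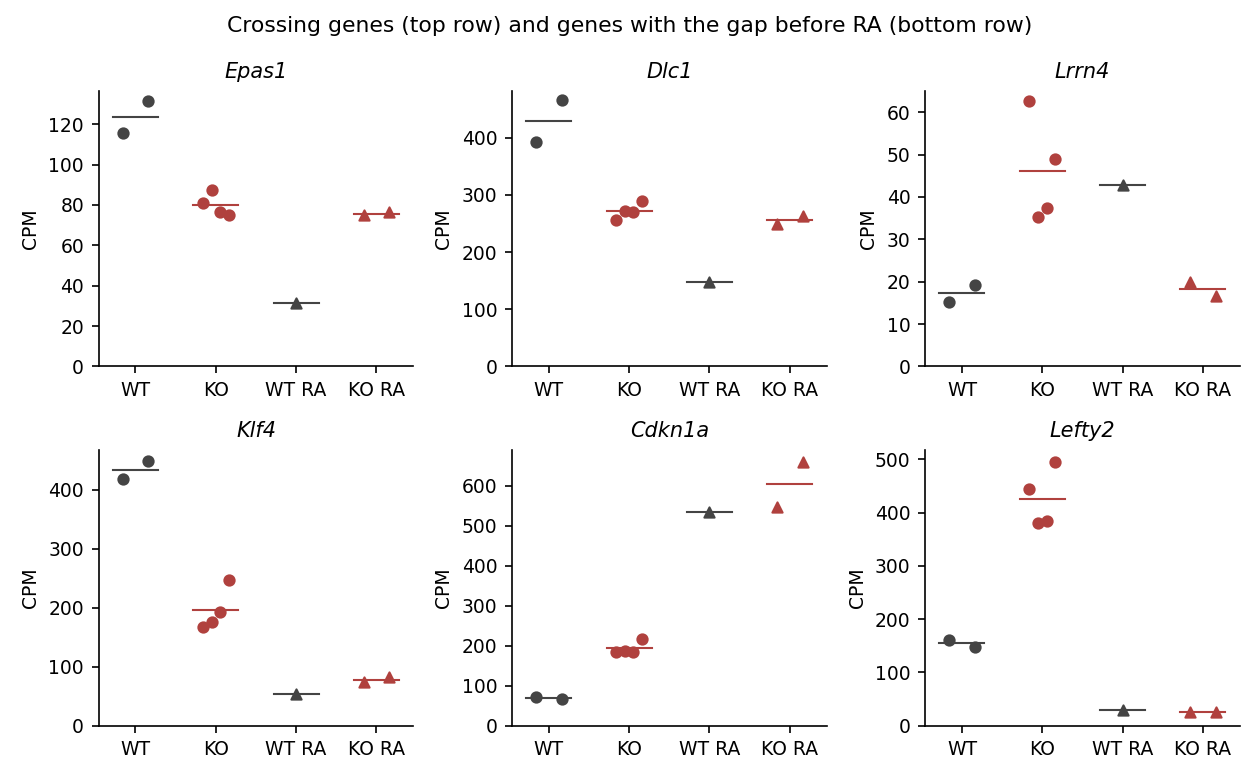
CPM (y axis, starting at 0) of 6 genes in each sample, with circles for untreated and triangles for RA-treated samples, WT in grey and KO in red, and a line at each group's mean (WT RA is 1 sample). In the top row WT and KO change order between untreated and RA samples, and in the bottom row the untreated gap is wide and the RA samples lie close together.

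Immediate early genes rose with RA in 11 of 17 tested members and fell in 1, in WT and in KO alike by count. Smooth and cardiac muscle genes rose in 11 of 14 in each. Over all tested genes 24.8% rose in WT and 28.3% in KO. Jun, an AP-1 subunit gene, stood at 54.5 and 45.0 CPM in untreated WT, 74.7 to 91.0 CPM in untreated KO, 415 CPM in WT after RA and 321 and 360 CPM in KO after RA (difference -1.06, SE 0.19, adjusted p = 0.0052). Fosl2, another subunit, had a difference of -1.11 (adjusted p = 0.018; not called with sub-batch A alone, adjusted p = 0.162). Among 17 tested immediate early genes, 4 were higher in untreated KO and none after RA, and 3 were called for the difference. The shares over all tested genes were 5.98%, 0.287% and 1.09%. The smooth muscle genes Cnn1 (calponin) and Myl9 (a myosin light chain) had differences of -0.87 (adjusted p = 0.0444) and -0.97 (adjusted p = 0.041). Cnn1 lost its call under 15 of 21 alternatives, sub-batch B alone among them (adjusted p = 0.123), and Myl9 under 12. Cnn1 stood at 18.5 and 15.0 CPM in untreated WT, 22.7 to 27.6 CPM in untreated KO, 280 CPM in WT after RA and 231 and 252 CPM in KO after RA. These genes also mark fibroblasts. The summed level of the feeder fibroblast list was 1308 and 1449 CPM in untreated WT, 2026 to 2217 CPM in untreated KO, 11909 CPM in WT after RA and 11662 and 13158 CPM in KO after RA, with 1 of 35 genes (Lum) at 0 counts in each WT group. In that list 7 of 32 tested genes were higher in untreated KO (median log2 0.61), beside 5.98% of all tested genes. In the list none was higher after RA (median log2 0.03), and none was called for the difference (median log2 -0.42). The share called for the difference over all tested genes was 1.09% (median log2 -0.01). The part of the feeder list in the differences was not tested. In bulk RNA a change in the number of cells of a type and in RNA per cell cannot be told apart.

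Some genes responded to RA in KO while WT had no called change. For Stra8, Rapgef3 and Mras the KO against WT gap passed only before RA, where KO was lower (log2 -1.15, -1.72 and -1.77). After RA their gaps were log2 0.51, 0.495 and -0.19 and did not pass. Stra8, a germ cell gene named for its induction by RA, stood at 91.8 and 64.5 CPM in untreated WT, at 37.9, 30.4, 41.9 and 27.0 CPM in untreated KO, at 94.4 CPM in WT after RA and at 121 and 148 CPM in KO after RA. Its WT sample after RA was near the untreated WT samples, while both KO samples were above all others. The change was log2 0.30 in WT (adjusted p = 0.279) and log2 1.96 in KO (adjusted p = 5.6e-10), a difference of 1.66 (SE 0.28, adjusted p = 0.00461; 1.59 with sub-batch A alone and 1.93 with B alone). Rapgef3, the gene of a cAMP-activated exchange factor for Rap, stood at 16.3 and 20.1 CPM in untreated WT, 3.64 to 9.10 CPM in untreated KO, 12.2 CPM in WT after RA and 15.5 and 18.8 CPM in KO after RA (difference 2.22, adjusted p = 0.00719; not called with sub-batch B alone, adjusted p = 0.108). Mras, a Ras-family GTPase gene, had a difference of 1.58 (adjusted p = 0.00233). That value rested on sub-batch A (2.03, WT at 85.7 and 88.8 CPM) and was 0.36 in B (adjusted p = 0.636, WT at 25.4 and 32.6 CPM).

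The opposite form, a fall in KO alone, was seen in Nefm, the gene of a neurofilament subunit. It stood at 3.51 and 3.03 CPM in untreated WT, at 33.2, 25.3, 22.1 and 13.6 CPM in untreated KO, at 4.56 CPM in WT after RA and at 4.39 and 7.01 CPM in KO after RA. The KO samples were high only before RA (difference -2.53, SE 0.60, adjusted p = 0.031; adjusted p = 0.104 with sub-batch A alone). Vgf, a neuropeptide precursor gene with few counts, stood at 0.638 and 1.11 CPM in untreated WT, 4.55 to 7.58 CPM in untreated KO, 10.9 CPM in WT after RA and 8.01 and 9.55 CPM in KO after RA. Vgf had another form, as it rose in WT (log2 3.44) and had no called change in KO (log2 0.59). It had the lowest difference of the named genes (-2.84, SE 0.60, adjusted p = 0.0158).

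RefSeq promoters of Stra8 and Lrrn4 are shown because both responses differed. Stra8 is named for its induction by RA, and Lrrn4 is among the genes that RA moved in opposite directions. The capitals mark AGGTCA, the half-site bound by RAR and RXR, searched on both strands in the 250 bases before the annotated start (GRCm38.p6, Stra8 on the plus strand at chr6:34920698-34920947, Lrrn4 on the minus strand at chr2:132880863-132881112).
Stra8: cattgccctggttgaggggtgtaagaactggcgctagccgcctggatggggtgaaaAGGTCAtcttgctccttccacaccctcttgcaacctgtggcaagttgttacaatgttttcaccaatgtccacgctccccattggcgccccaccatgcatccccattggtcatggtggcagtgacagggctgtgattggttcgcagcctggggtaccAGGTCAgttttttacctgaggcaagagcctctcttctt
Lrrn4: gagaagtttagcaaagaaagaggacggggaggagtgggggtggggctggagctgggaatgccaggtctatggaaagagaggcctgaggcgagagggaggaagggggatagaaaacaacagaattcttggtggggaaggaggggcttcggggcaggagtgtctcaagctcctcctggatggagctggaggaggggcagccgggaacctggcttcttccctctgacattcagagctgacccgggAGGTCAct
Stra8 holds 2 matches, which begin 194 and 38 bases before the start, and Lrrn4 holds 1. The Stra8 window lies inside the gene as counted (chromosome 6, 34920163 to 34939344), so its start is an internal one. Here too a window was printed only where it held a match. AGGTCA was present in 1330 of the 10535 tested genes with a window (12.6%) and in 18 of the 117 called ones (15.4%), so the half-site alone is common.

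The gap was larger after RA in 35 genes, and in 8 of them it passed only there (Nr2f1, Grb10, Pclaf, Tshz1, Glul, Ankrd33b, 2010204K13Rik and Gm25394; the last 6 fall outside the rule for named genes and were picked after their values were seen). Nr2f1, the gene of the orphan nuclear receptor COUP-TFI and a known RA target, stood at 14.4 and 13.4 CPM in untreated WT, at 12.3, 16.6, 15.2 and 11.7 CPM in untreated KO, at 180 CPM in WT after RA and at 89.6 and 80.7 CPM in KO after RA. The untreated groups overlapped, and the single WT sample after RA was above both KO samples. The rise was log2 3.71 in WT and log2 2.57 in KO (difference -1.14, SE 0.26, adjusted p = 0.0232). Grb10, an imprinted gene for an adaptor of insulin receptor signalling, stood at 112 and 120 CPM in untreated WT, 88.4 to 125 CPM in untreated KO, 588 CPM in WT after RA and 321 and 304 CPM in KO after RA (difference -0.84, SE 0.20, adjusted p = 0.0296). Tshz1, a zinc finger developmental gene, followed the same form, with 280 CPM in WT and 162 and 167 CPM in KO after RA (difference -1.03, adjusted p = 0.0271). Each of these rose in both genotypes and rose further in WT, and Nr2f1 lost its call under 11 of 21 alternatives and Grb10 under 9.

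Glul, the gene of glutamine synthetase, fell with RA in WT alone. It stood at 206 and 231 CPM in untreated WT, 184 to 228 CPM in untreated KO, 114 CPM in WT after RA and 197 and 190 CPM in KO after RA (difference 0.86, adjusted p = 0.0149). Pclaf, which encodes a PCNA-binding factor of replicating cells, fell further in KO, to 103 and 82.3 CPM against 173 CPM in WT (difference -0.92, adjusted p = 0.0141). No member of the mitosis and DNA replication list, 32 genes, was called for the difference or after RA, beside 1.09% and 0.396% of all tested genes. Cdh6, a cadherin gene, had 114 CPM in WT and 57.9 and 63.9 CPM in KO after RA (difference -1.51, adjusted p = 0.0103; not called with sub-batch A alone, adjusted p = 0.137). Slc35f2, a membrane transporter gene, fell to 17.5 CPM in WT and to 31.7 and 34.1 CPM in KO (difference 1.20, adjusted p = 0.014). Igf1, a growth factor gene, reached 25.1 CPM in WT and 10.7 and 9.22 CPM in KO (difference -2.35, adjusted p = 0.0176; not called with sub-batch B alone, adjusted p = 0.136). The gaps of Cdh6, Slc35f2 and Igf1 passed neither before nor after RA (log2 -0.91, 0.91 and -1.33 after RA). The WT value after RA of each gene in this paragraph comes from 1 sample.

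**Figure D3:**
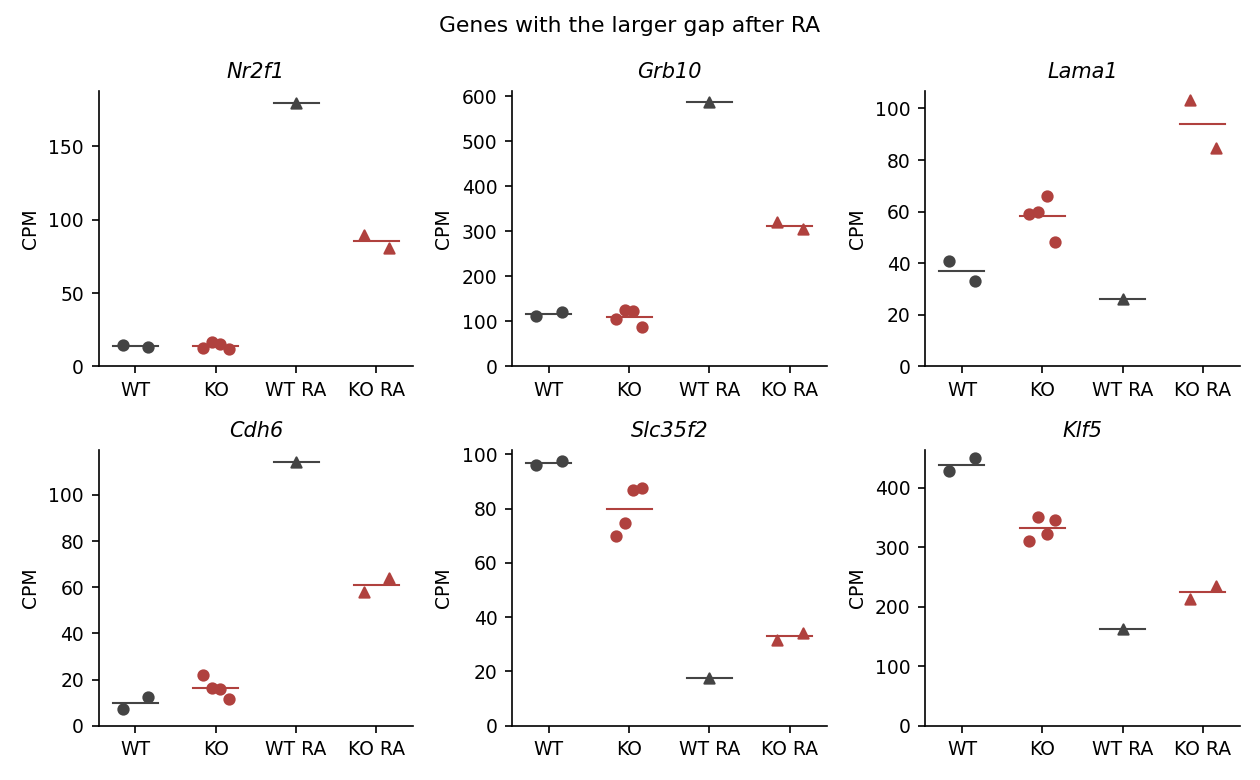
CPM (y axis, starting at 0) of 6 genes whose gap was larger after RA, in each sample, with circles for untreated and triangles for RA-treated samples, WT in grey and KO in red, and a line at each group's mean. Nr2f1 and Grb10 overlap between genotypes before RA and stand apart after it, with the 1 WT sample at 180 and 588 CPM.

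The difference was called for 2 of 30 tested genes of retinoid metabolism and direct RA targets and for 2 of 31 tested Hox genes, beside 1.09% of all tested genes. Of the 30, 17 rose in WT and 20 in KO, and the 2 called, Stra8 and Nr2f1, differed in opposite directions. Cyp26a1, the gene of the main RA-degrading enzyme, stood at 20.7 and 25.5 CPM in untreated WT, 21.8 to 33.2 CPM in untreated KO, 111 CPM in WT after RA and 200 and 219 CPM in KO after RA. Its gap passed after RA (log2 0.91, adjusted p = 0.0143), but the difference did not (0.67, SE 0.24, adjusted p = 0.231). Of 31 tested Hox genes, 3 were higher in untreated KO (median log2 0.41), beside 5.98% of all tested genes, and none differed after RA (median log2 -0.24). The difference was called for Hoxd4 (-1.67, adjusted p = 0.0178) and Hoxc8 (-1.36, adjusted p = 0.0369), which encode positional homeobox factors. Hoxd4 was not called with sub-batch B alone (adjusted p = 0.0543), and Hoxc8 was called with neither A (adjusted p = 0.301) nor B (adjusted p = 0.131) and lost its call under 16 of 21 alternatives. Hoxd4 stood at 6.70 and 3.84 CPM in untreated WT, 7.15 to 13.9 CPM in untreated KO, 80.0 CPM in WT after RA and 55.6 and 56.7 CPM in KO after RA. WT was below KO before RA and above it after.

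Some extra-embryonic endoderm genes were higher in KO both before and after RA. This lineage lays down basement membrane of laminin and collagen IV and is specified by GATA4, GATA6 and SOX17. Of 29 tested genes, 19 were higher and 1 lower in untreated KO (median log2 0.67), and 10 were higher and none lower after RA (median log2 0.76). Over all tested genes, 5.98% were higher in untreated KO and 0.287% after RA. All 10 had also passed in untreated cells, and the other 9 of the 19 did not pass after RA. Among those 9, Amn, the gene of a subunit of an endocytic receptor, had a gap of log2 1.26 before and log2 -0.06 after RA, and Sparc, a matrix protein gene, log2 0.67 and log2 0.28. Gata6 was also among those 9, with log2 0.63 before and log2 0.43 after RA. Only Lama1 was called for the difference, beside 1.09% of all tested genes. Lama1, the laminin α1 chain gene, stood at 40.8 and 33.3 CPM in untreated WT, at 59.2, 59.8, 66.0 and 48.4 CPM in untreated KO, at 26.1 CPM in WT after RA and at 103 and 84.7 CPM in KO after RA. KO was above WT on both sides and the gap widened from log2 0.69 to log2 1.85 (difference 1.16, SE 0.27, adjusted p = 0.03, lost under 11 of 21 alternatives). The other members that passed after RA were Foxa2, Cited1, Col4a1, Sox17, Lamb1, Gata4, Lamc1, Srgn and Col4a2, named here after their values were seen. Sox17, an endoderm transcription factor gene, stood at 11.5 and 15.1 CPM in untreated WT, 19.5 to 42.0 CPM in untreated KO, 19.5 CPM in WT after RA and 63.4 and 63.7 CPM in KO after RA, and its difference did not pass (0.43, SE 0.33, adjusted p = 0.719). Lamb1, the laminin β1 chain gene, had a gap of log2 0.93 before and log2 0.92 after RA. The summed level of the list was 2175 and 2121 CPM in untreated WT, 3075 to 3480 CPM in untreated KO, 5756 CPM in WT after RA and 7737 and 7765 CPM in KO after RA. Sparc alone, whose gap did not pass after RA, held 3195 CPM of this in WT after RA and 3799 and 3969 CPM in KO after RA. The listed genes Apob and Hnf4a were at 0 counts in WT after RA, and Apob in KO after RA. In all, 39 genes passed before and after RA, and 35 of these were not called for the difference, 29 higher and 6 lower in KO on both sides.

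For the other lists named above with no call after RA by edgeR, the members at an unadjusted p under 0.05 there were 3 of 25 for TGF-beta, BMP and Nodal targets, 1 of 19 for interferon response, 3 of 17 for immediate early genes, 6 of 32 for feeder fibroblasts, 2 of 32 for mitosis and DNA replication and 6 of 31 for Hox genes. For the difference they were 9 of 32 for feeder fibroblasts and 1 of 32 for mitosis and DNA replication. The shares over all tested genes were 6.34% after RA and 10.7% for the difference. DESeq2's Wald test called none of these list members.

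**Figure D4:**
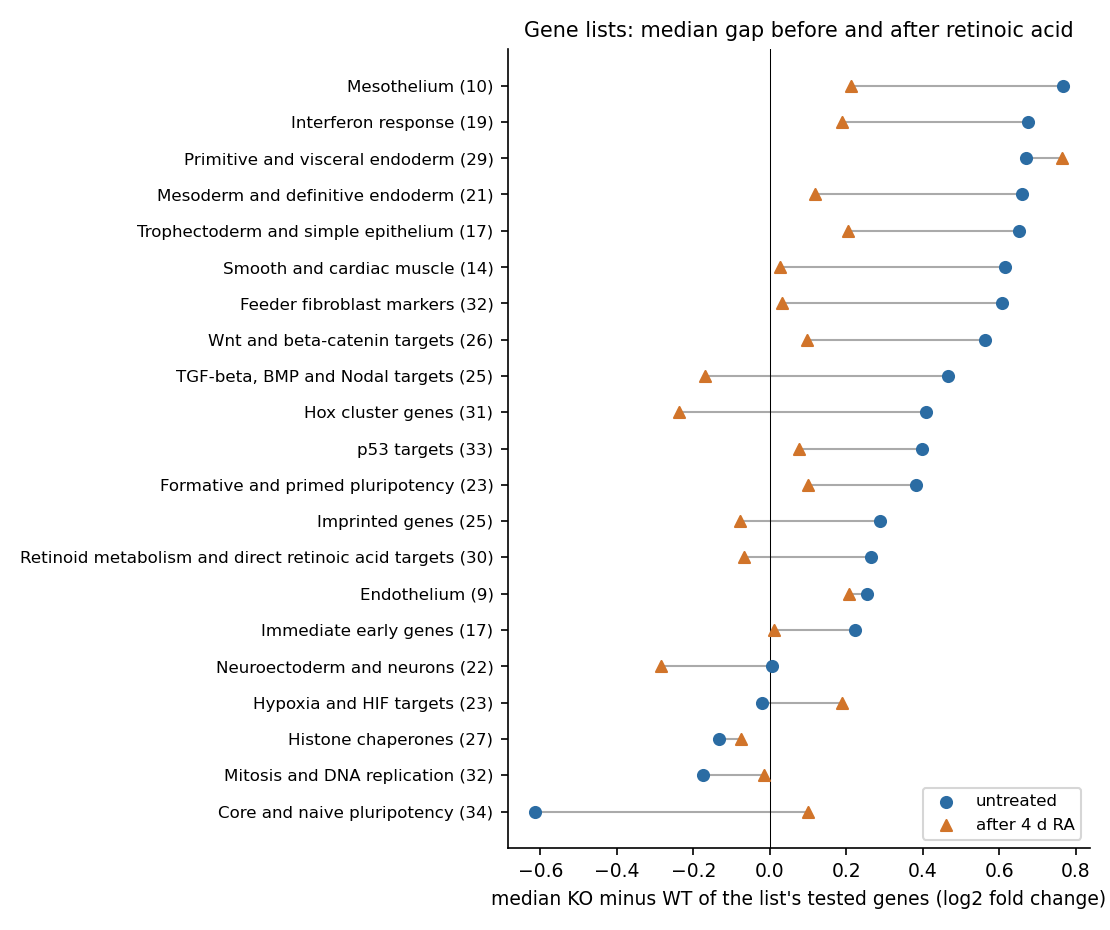
Median KO minus WT log2 fold change (x axis) of the tested members of 21 gene lists (number in brackets), untreated (circles) and after 4 d of RA (triangles). Most medians lie nearer to 0 after RA, from log2 -0.61 to log2 0.10 for core and naive pluripotency, while primitive and visceral endoderm stays at log2 0.67 and log2 0.76.

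The R1 samples of set 1 offer untreated KO and WT samples that enter none of these values. They were 2 WT, 2 KO1 and 2 KO2 samples, with Set levels of 1086 and 1114 CPM in the WT samples against 19.4 to 28.6 CPM in the KO samples. The marker genes had the same untreated order there. Epas1 stood at 205 and 194 CPM in WT and 82.2 to 110 CPM in KO, Klf4 at 398 and 315 CPM against 93.3 to 138 CPM, Dlc1 at 666 and 661 CPM against 224 to 260 CPM, and Lrrn4 at 13.0 and 9.41 CPM against 26.6 to 44.0 CPM. Of the 125 genes with the larger gap before RA, 109 were tested in set 1. There 91 were called with the sign of their untreated set 2 gap, none with the opposite sign. Over all 9764 genes tested in set 1, 13.8% were called, 7.71% higher and 6.06% lower in KO. Of the 35 genes with the larger gap after RA, 25 were tested and 13 called with the sign of their untreated set 2 gap. For some of these, such as Epas1 and Dlc1, that sign is opposite to the sign of the gap after RA.

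Genes sorted by set 1 alone show the same narrowing. The 752 genes higher in set 1 KO and tested in set 2 had a median set 2 gap of log2 0.61 untreated and log2 0.09 after RA. The 590 genes lower in set 1 KO had log2 -0.44 and log2 -0.05, and the 8362 genes not called in set 1 had log2 -0.03 and log2 -0.02. The set 2 gap was larger before RA by size in 75.9% of the called genes and in 52.4% of those not called. The difference was called against the set 1 direction in 68 of the 752 higher and 35 of the 590 lower genes, and with it in 1 and 0. The direction of RA itself also divided these genes. Of the 752 genes higher in set 1 KO, 527 (70.1%) rose with RA in set 2 WT and 67 (8.91%) fell, and of the 590 lower, 20 (3.39%) rose and 392 (66.4%) fell. Among genes not called in set 1, 22.7% rose and 28.4% fell.

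**Figure D5:**
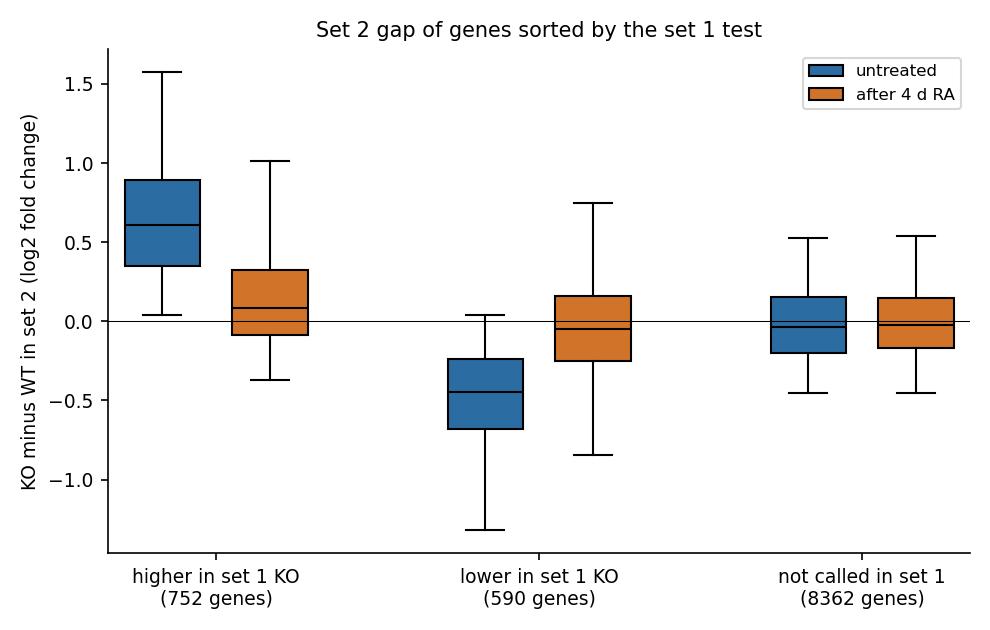
Set 2 KO minus WT log2 fold change (y axis), untreated and after 4 d of RA, for genes grouped by the KO against WT test of set 1, whose samples are not used in set 2. Boxes span the quartiles with the median, and whiskers the 5th to 95th percentile of genes; medians go from log2 0.61 to log2 0.09 for the 752 higher genes and from log2 -0.44 to log2 -0.05 for the 590 lower ones.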

How the data were processed

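The authors deposited raw counts of reads per gene, made with featureCounts 1.6.0 and Ensembl 97 (GRCm38) per the file headers. The options were left at their defaults, which use no strand and drop reads that overlap more than 1 gene. Alignment was with STAR 2.5.4b and Subread 2.0.0 is also listed, per the submitters' processing notes. Of 55573 genes, 55394 have a symbol. Counts of libraries with 1 title code were summed. The 9 samples were fitted by 5 group means with edgeR 4.0.16 in R 4.3.3 (TMM, filterByExpr with minimum count 10 and total 15, robust quasi-likelihood F test, 4 residual degrees of freedom), with Benjamini-Hochberg adjustment over the 14659 tested genes at 0.05. The untreated KO level was the mean of both lines. CPM are TMM-scaled, and log2 fold changes come from the fit. Because WT RA is 1 sample, the filter keeps genes that pass in 1 sample. On simulated counts the fit recovered 22% of 2-fold and 68% of 4-fold differences, with 6.25% of 96 calls false. Set 1 was fitted alone. Sub-batches were split at the largest gap on the first principal component.

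Members and the 21 lists (509 genes) were chosen with earlier results of these data known. Named were the 4 marker genes and Set, the 12 highest and 12 lowest differences among called, named genes with at least 10 CPM in a group, the 6 smallest adjusted p with the larger gap on each side, and up to 4 called members of each list. Of the genes so chosen, 1 is not reported here. Promoters are RefSeq windows (GRCm38.p6), matched by symbol, and windows of these genes without a match to the motif were left out. Igf2os overlaps Igf2 on the other strand, so its reads cannot be told apart. Alternatives numbered 21 (18 planned and 3 added after seeing the data, which use the sub-batches).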

Additional observations from a re-analysis of the deposited data

Results flagged for a closer look

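The change with RA differed between KO and WT, by the test of the difference itself, in 51 named genes, all printed here as log2 values of KO minus WT. Values above 0 were seen for Sall3 (2.44), Rapgef3 (2.22), Sgms2 (2.06), Epas1 (1.89), Mymx (1.84), Caprin2 (1.80), Etv4 (1.70), Klf4 (1.69), Stra8 (1.66), Porcn (1.61), Mras (1.58), Hmces (1.55), Dlc1 (1.46), Utf1 (1.45), Tet2 (1.35), Slc35f2 (1.20), Lama1 (1.16) and Klf5 (0.86). Values below 0 were seen for Vgf (-2.84), Lzts1 (-2.84), Lrrn4 (-2.57), Nefm (-2.53), Matn4 (-2.44), Tap2 (-2.39), Igf1 (-2.35), Cpne8 (-2.32), Shisa3 (-2.12), Itpkb (-2.04), Igf2os (-2.01), Gbp2b (-1.97), Frmd4b (-1.86), Hoxd4 (-1.67), Lefty2 (-1.65), Tap1 (-1.58), Cdh6 (-1.51), Hoxc8 (-1.36), Krt19 (-1.35) and Ttyh3 (-1.33). Smaller values below 0 were seen for Cdkn1a (-1.30), Nr2f1 (-1.14), Id2 (-1.12), Id3 (-1.12), Pim2 (-1.11), Fosl2 (-1.11), Jun (-1.06), Myl9 (-0.97), Btg2 (-0.95), Cnn1 (-0.87), Grb10 (-0.84), Plk2 (-0.83) and Phlda3 (-0.81). Some of these values differed widely between sub-batches. The Sall3 value rested on sub-batch A (2.68, WT at 46.8 and 55.7 CPM) and was 0.75 in B (WT at 9.63 and 9.82 CPM). Matn4 had -0.61 with A alone and -2.91 with B alone, and Krt19 -0.52 and -1.67. Matn4 lost its call under 13 of 20 alternatives and Krt19 under 14 of 21.

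Among the 4 untreated KO samples, 2f stood apart from the other 3 in Cdkn1a (217 CPM, the highest), Id2 (130 CPM, the lowest) and Id3 (930 CPM, the lowest). Chance gives such a gap in about 1 of 20 groups, and 52 genes were looked at. Sample 2f is a single library of sub-batch A, and its part in these values was not tested.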

How the results depend on the processing

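The RA by genotype difference (160 genes called) gave 89 with the DESeq2 Wald test, 284 without the low-count filter, 2 with each library taken singly, 56 and 31 with only the first or second listed library of each code, 79 with KO2 alone as untreated KO, and 336 and 380 with untreated libraries of sub-batch A or B alone. Leaving out 1 sample gave 27 to 388. KO against WT untreated (1524) gave 883, 916, 915, 650 and 785 under the Wald test, every library, first library, second library and KO2 alone, and 381 to 2134 without 1 sample, with 381 without WT 2b and 837 without WT 2a. KO against WT after RA (58) gave 33, 94, 8, 27 and 34 under the Wald test, no filter, every library, first and second library, 164 and 160 with sub-batch A or B, and 15 to 98 without 1 sample. The genes with the larger gap after RA (35) numbered 17, 65, 1, 7, 5, 13 and 21 under the Wald test, no filter, every library, first library, second library, KO2 alone and all samples of the series in 1 fit, 84 and 70 with sub-batch A or B, and 4 to 72 without 1 sample. The causes were not tested. The share of called genes with the larger gap before RA was 74.1% to 88.1% in each alternative but every library, where it was 1 of 2.

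Counts for RA in WT and in KO stayed within 1.5 times. Of 1078 values of single genes under the alternatives, 721 stayed on their side of the threshold, 355 lost their call and 2 turned sign, both in the RA by genotype difference of Set, which was not called (0.30, -0.049 with KO1 alone, and -0.003 to 0.553 without 1 sample). WT RA sample 2g could not be left out. At this depth the test of the difference recovered 22% of simulated 2-fold differences.

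With the replicate block, the untreated libraries alone gave 433 genes, against 721 without it. The numbers do not pair the libraries of all groups: deviations of same-numbered libraries correlated at 0.22 to 0.33 between WT and KO2 and at -0.31 to -0.09 for pairs with KO1. Libraries numbered 1, 2 and 3 fell in sub-batches A, B and A in WT and in KO2, but in B, A and B in KO1. RA samples carry no replicate number, so no other result has a paired fit.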

Other observations

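Epithelial and mesodermal lists had gaps before RA like those of the p53 and Nodal lists. Over all tested genes, 5.98% were higher and 4.42% lower in untreated KO, and 0.287% and 0.109% after RA. Trophectoderm and simple epithelium had 7 of 17 tested genes higher in untreated KO (median log2 0.65) and 1 after RA (median log2 0.21). Its member Krt19, a simple-epithelial keratin gene, stood at 3.19 and 4.15 CPM in untreated WT, at 13.97 to 21.1 CPM in untreated KO, at 48.4 CPM in WT after RA and at 73.7 and 87.2 CPM in KO after RA, and KO was above WT on both sides. Mesothelium genes had 4 of 10 higher in untreated KO, then 1 higher and 1 lower after RA, and mesoderm and definitive endoderm genes 7 of 21 higher and 1 lower, then 2 higher. Wnt and β-catenin targets had 8 of 26 higher and 2 lower in untreated KO and none after RA. Porcn, which encodes the enzyme that acylates Wnt proteins, was the member with a higher difference (22.0 and 19.8 CPM in KO against 9.87 CPM in WT after RA).

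Formative and primed pluripotency genes went both ways in untreated KO, 8 of 23 higher and 4 lower, with none after RA. Pim2, a serine kinase gene of this list, stood at 121 and 83.5 CPM in untreated WT, at 179 to 236 CPM in untreated KO and at 36.5 to 42.6 CPM in all 3 samples after RA. Neuroectoderm genes had 4 of 22 higher and 3 lower, and none after RA. Of 23 hypoxia genes, 4 were higher and 3 lower before RA and 2 higher after. Epas1 was the member called for the difference, beside 1.09% of all tested genes.

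Histone chaperones had 1 of 27 tested genes higher and 4 lower in untreated KO, then 1 lower after RA, endothelium genes 1 of 9 higher and 1 lower, then none, and imprinted genes 2 of 25 higher and 3 lower, then 1 higher and 1 lower. Smooth and cardiac muscle genes had 4 of 14 higher, then none. Beside these counts stand 5.98% of all tested genes higher and 4.42% lower in untreated KO.

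After RA, edgeR gave 4 of 26 Wnt, 4 of 23 formative, 4 of 22 neuroectoderm, 1 of 9 endothelium and 3 of 14 muscle genes at an unadjusted p under 0.05, beside 6.34% of all tested genes. DESeq2's Wald test called none of these list members.

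A few called genes had almost no counts on 1 side. Ankrd33b stood at 0.253 CPM in WT after RA and at 7.64 and 5.21 CPM in KO, and 3.82 to 7.65 CPM in all untreated samples. Gm25394 stood at 3.80 CPM in WT after RA and was at 0 counts in both KO samples, which allow up to 3 counts each.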
